A study of Homo sapiens with 8 samples.

Results

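The genes described here are the human zinc finger genes numbered ZNF500 to ZNF899. They were chosen by symbol alone, as ZNF followed by a number in that range, without pseudogenes and antisense genes. Of 19775 genes with a probe set of their own on the array, 215 belonged to this group, and all 215 are listed as protein coding in the RefSeq gene table. The 237 ZNF genes with other numbers were used for comparison. Of the genes fitting the symbol rule, 9 were left out as pseudogenes and 7 were not followed because their probe sets list several symbols.

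Most ZNF proteins carry tandem C2H2 zinc fingers, each a short fold held by a zinc ion, and arrays of such fingers read stretches of DNA. Many also carry a KRAB domain, which recruits the scaffold protein TRIM28 and, through it, the histone methyltransferase SETDB1 and heterochromatin proteins, and which silences transposable elements and nearby genes. The family grew by repeated duplication, so that many members stand side by side in clusters on chromosome 19. A smaller number of ZNF proteins have other functions, such as ribosome assembly, translation control or RNA processing.

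Kasumi-1, an acute myeloid leukemia cell line with the fusion of RUNX1 and RUNX1T1, was electroporated with in vitro transcribed RNA for NR4A1 WT, NR4A1 CEAA or GFP, and RNA was taken 6 h later. NR4A1 is a nuclear receptor without a known physiological ligand, NR4A1 CEAA is altered in a zinc finger of its DNA binding domain, and GFP served as the control. There were 3 NR4A1 WT arrays, 2 NR4A1 CEAA arrays and 3 GFP arrays of 1 cell line, and nothing in the labels says whether replicates were separate cultures, so that p-values measure the spread between arrays, which may be technical. The 3 probe sets of NR4A1 had values between 5.06 and 6.66 in all 8 arrays and did not differ between the groups, so they give no check of which array received NR4A1 RNA. Of the myeloblast markers followed, KIT (13.45 to 13.78), MPO, RUNX1T1, PTPRC, CD34 and ANPEP were all above the median of the array. The T cell gene CD3E (4.60 to 4.98) and the B cell gene MS4A1 (3.75 to 4.40) were near or below it. Of the other markers of foreign cell types, CD3D, HBB, KRT18 and COL1A1 lay between 5.04 and 7.61, and the epithelial marker EPCAM between 11.43 and 11.86. In limma's test, PTPRC was higher with NR4A1 WT (0.52, adjusted p = 0.00342) and with NR4A1 CEAA (0.48, adjusted p = 0.0111) than with GFP. RUNX1T1 was lower with NR4A1 WT (-0.36, adjusted p = 0.00122), as was EPCAM (-0.19, adjusted p = 0.0382), CD34 was higher with NR4A1 WT (0.28, adjusted p = 0.0251), and KIT was higher with NR4A1 CEAA (0.25, adjusted p = 0.0159). The part of these genes in the results was not tested.

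The study asked how NR4A1 acts together with ETS factors, and promoters were searched here for the letters of their sites. The paper placed most NR4A1 binding at regulated genes far from the start. At the smaller share of sites near the start, it found NR4A and ETS motifs enriched for induced genes, and no enriched motif for repressed genes. It reported recruitment of the ETS factor FLI-1 at distal sites, but not at the proximal site of ENO3. A search of promoters leaves out those distal sites and cannot address the study's question. In a promoter of 300 bases (250 before to 50 after the start, RefSeq, GRCh38.p14), the NR4A site letters AAAGGTCA were in 0 of 178 members found in the table, against 0.897% of the 15384 genes followed that have a promoter there. The ETS letters CCGGAAGT, on either strand, were in 33 of 178 members (18.5%), against 6.25% of the genes followed and 19.2% of the other ZNF genes. Within 50 bases before to 30 bases after the start, they were in 27 members (15.2%), against 3.8% of the genes followed. The windows below show the letters beside the start in 6 members and farther upstream in ZNF567 and ZNF740, all members whose levels are described later. Capitals mark CCGGAAGT or its reverse complement ACTTCCGG, which may overlap.
ZNF593: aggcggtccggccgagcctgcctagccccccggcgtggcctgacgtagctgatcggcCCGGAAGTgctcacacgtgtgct
ZNF766: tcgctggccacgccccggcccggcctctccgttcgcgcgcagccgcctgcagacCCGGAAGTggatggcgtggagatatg
ZNF550: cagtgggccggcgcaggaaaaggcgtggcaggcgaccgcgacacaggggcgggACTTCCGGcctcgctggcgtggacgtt
ZNF551: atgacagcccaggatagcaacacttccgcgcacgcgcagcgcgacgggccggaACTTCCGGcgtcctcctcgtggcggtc
ZNF668: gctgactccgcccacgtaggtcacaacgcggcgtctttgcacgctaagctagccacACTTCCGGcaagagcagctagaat
ZNF787: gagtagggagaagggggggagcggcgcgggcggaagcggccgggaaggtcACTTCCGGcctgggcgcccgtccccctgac
ZNF567: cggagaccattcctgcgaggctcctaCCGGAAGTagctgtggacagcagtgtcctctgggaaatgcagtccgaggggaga
ZNF740: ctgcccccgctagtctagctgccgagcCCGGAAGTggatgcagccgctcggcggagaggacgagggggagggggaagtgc
The first 6 windows run from 50 bases before to 30 after the start. They lie at chr1:26169858-26169937 (ZNF593), chr19:52269537-52269616 (ZNF766) and chr19:57681927-57682006 (ZNF551) on the plus strand, and at chr19:57559834-57559913 (ZNF550), chr16:31074211-31074290 (ZNF668) and chr19:56121266-56121345 (ZNF787) on the minus strand. The ETS letters of ZNF567 (chr19:36666804-36666883) and ZNF740 (chr12:53180612-53180691), both on the plus strand, lie farther upstream. ZNF668 and ZNF646 are transcribed away from each other from starts 182 bases apart on chromosome 16 and share 281 bases of the promoter windows. Set against the calls described below, the letters were in 1 of 20 members higher with NR4A1 WT (5.0%), 5 of 25 lower (20.0%) and 27 of the members without a call (20.3%). With NR4A1 CEAA they were in 6 of 35 members higher (17.1%), 4 of 16 lower and 23 of those without a call (18.1%). These shares are a description of few members and were not tested.

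Levels of the members spanned much of the array's range. On the log2 intensity scale, the mean over the 8 arrays ran from 2.74 for ZNF750 to 11.26 for ZNF706, with a median of 6.24 against 5.87 over all genes. Of the 215 members, 150 (69.8%) were above the median of all probe sets (4.771), against 64.9% of all genes. The other 65 are called dim here and are not shown to be above background. Chromosome 19 held 108 members (50.2%), against 6.68% of all genes. Levels of different probe sets are not amounts of RNA and were compared only between arrays. The median SD between replicates was 0.1 with NR4A1 WT, 0.06 with NR4A1 CEAA and 0.08 with GFP.

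With NR4A1 WT, members moved both ways in about equal number. In limma's test with Benjamini-Hochberg adjustment over all genes (adjusted p under 0.05), 25 members were higher than with GFP (11.6%, against 9.97% of all genes) and 31 were lower (14.4%, against 10.3%). Rank Product, the test in the study's methods, called 3 higher (2.22% of all genes) and 5 lower (2.12%). The median difference of the members was -0.01 on the log2 scale, against 0.0 over all genes. Most differences were small, and the median fold of those past the test was 1.27. Only 3 were higher by at least 1.5-fold (2.34% of all genes were) and 5 lower (2.19% of all genes). Array values did not overlap for 34 higher members (17.8% of all genes) and 40 lower members (17.8%).

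The largest rise with NR4A1 WT was in ZNF672. Its log2 intensity was 9.40, 9.42 and 9.37 in the NR4A1 WT arrays, against 8.13, 8.17 and 8.25 in the GFP arrays. All NR4A1 WT arrays lay above all GFP arrays, by 1.21 ± 0.07 (SE) or 2.32-fold (limma, adjusted p = 2.1e-05). ZNF688 had 6.97, 7.34 and 7.27 with NR4A1 WT, against 6.54, 6.50 and 6.39 with GFP, a rise of 0.72. ZNF821 had 6.73, 6.74 and 6.69 with NR4A1 WT, against 6.17, 6.09 and 6.11 with GFP, a rise of 0.60. Neither overlapped between the groups, and both are zinc finger genes of chromosome 16 whose functions are little described. The 4 other probe sets of ZNF688 differed by 0.0 to 0.4 between NR4A1 WT and GFP, none past the test. ZNF827 recruits a nucleosome remodeling complex to telomeres. It had 9.41, 9.24 and 9.36 with NR4A1 WT, against 8.73, 8.84 and 8.74 with GFP, a rise of 0.56 ± 0.06 (adjusted p = 0.00038). ZNF555 rose by 0.49, ZNF687 by 0.46, ZNF791 by 0.44 and ZNF559 by 0.40, each with all arrays apart. The call of ZNF559 was lost without NR4A1 WT replicate 1 or 2 or GFP replicate 1 or 3, with adjusted p between 0.0528 and 0.0614.

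The largest falls with NR4A1 WT were of ZNF566 and ZNF850, which lie near each other on chromosome 19 with other members between them. ZNF566 had 6.00, 5.62 and 5.81 in the NR4A1 WT arrays, against 6.58, 6.83 and 6.56 in the GFP arrays. It fell by 0.85 ± 0.11 (1.8-fold, adjusted p = 0.000942). ZNF850 had 5.59, 5.09 and 5.21 with NR4A1 WT, against 5.90, 6.20 and 6.02 with GFP, a fall of 0.74 ± 0.13. Neither gene overlapped between the groups. ZNF593, a nuclear factor of large ribosomal subunit assembly whose yeast counterpart travels with the pre-ribosome, had 8.55, 8.60 and 8.47 with NR4A1 WT, against 9.29, 9.20 and 9.30 with GFP. It fell by 0.72 ± 0.06 (1.65-fold, adjusted p = 7.39e-05). ZNF598 is the ubiquitin ligase that marks collided ribosomes. It had 7.79, 7.86 and 7.75 with NR4A1 WT, against 8.44, 8.40 and 8.40 with GFP, a fall of 0.61 ± 0.05 (adjusted p = 9.15e-05). ZNF710 fell by 0.62, ZNF529 by 0.58, ZNF770 by 0.54 and ZNF516 by 0.53, all with arrays apart. ZNF706, chosen after its values were seen as the brightest member, had 11.01, 11.02 and 11.07 with NR4A1 WT, against 11.40, 11.45 and 11.45 with GFP, and fell by 0.40 ± 0.05 (adjusted p = 0.000875). In mouse embryonic stem cells its counterpart represses Klf4.

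**Figure D1:**
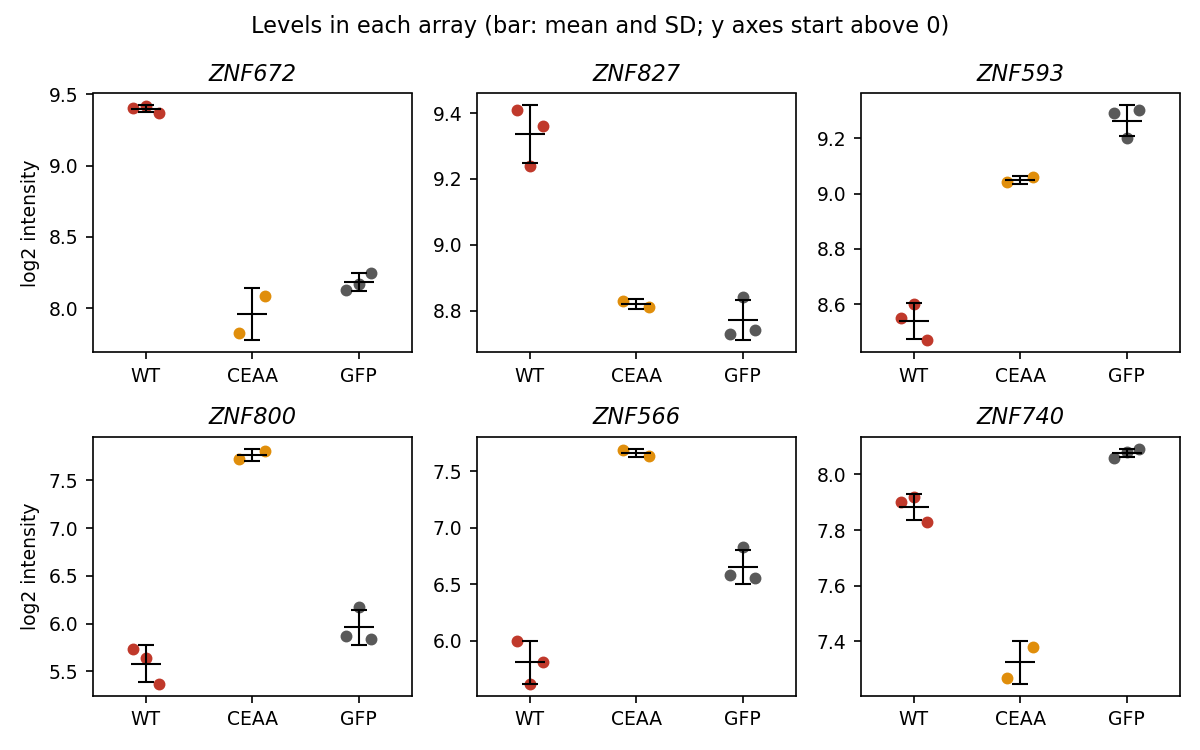
Log2 intensity (y axes, each with its own range that starts above 0) of 6 zinc finger genes in each NR4A1 WT, NR4A1 CEAA and GFP array (points), with the mean and SD of the group (bars). ZNF672 and ZNF827 stand apart in the NR4A1 WT arrays, ZNF593 is lowest there, and ZNF800 and ZNF566 are highest in the 2 NR4A1 CEAA arrays.

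With NR4A1 CEAA, more members were higher than lower, whereas over all genes more were lower. Against GFP, 38 members were higher (17.7%, against 7.14% of all genes) and 17 were lower (7.91%, against 12.1%). The other ZNF genes had 46 of 237 higher (19.4%) and 12 lower (5.06%). The median difference was 0.05 for the members, 0.06 for the other ZNF genes and -0.03 over all genes. Arrays did not overlap for 74 higher members (22.1% of all genes) and 49 lower ones (29.1%). Rank Product called 6 higher (0.47% of all genes) and 2 lower (1.36%). At least 1.5-fold and past limma's test were 5 higher members (0.612% of all genes) and 2 lower ones (1.52%). Among members above the median level, 35 of 150 were higher (23.3%), against 10.1% of all genes above it, and 16 were lower (10.7%), against 17.7%. Among the 65 dim members, 3 were higher (4.62%) and 1 was lower (1.54%), against 1.63% and 1.71% of all dim genes. The number of higher members depended on single arrays: leaving out GFP replicates 1, 2 and 3 in turn gave 23, 25 and 25. It was smaller still without either NR4A1 CEAA array, which leaves a single array in that group. The number of lower members was 10, 9 and 7 without GFP replicates 1, 2 and 3. The shares of all genes in these fits were not counted, so a loss particular to the members cannot be told from a loss over all genes.

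ZNF800 rose most, and ranked 1 among the 19775 genes by its difference between NR4A1 CEAA and GFP. Its log2 intensity was 7.72 and 7.81 in the NR4A1 CEAA arrays, against 5.87, 6.17 and 5.84 in the GFP arrays. The rise was 1.80 ± 0.13, or 3.49-fold (adjusted p = 0.00033). In the NR4A1 WT arrays it had 5.74, 5.64 and 5.37, below all GFP arrays but not past the test (-0.38, adjusted p = 0.0606). In human intestinal cells ZNF800 is known as a repressor of enteroendocrine differentiation. Only the followed probe set showed the rise, as described with the probe sets below.

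ZNF566 had 7.69 and 7.64 with NR4A1 CEAA, against 6.58, 6.83 and 6.56 with GFP, a rise of 1.00 ± 0.12 (2.01-fold, adjusted p = 0.00185). ZNF850 had 7.10 and 6.91 with NR4A1 CEAA, against 5.90, 6.20 and 6.02 with GFP, a rise of 0.96 ± 0.15 (1.95-fold, adjusted p = 0.0046). They ranked 9 and 12 among all genes by this difference, and their arrays did not overlap. ZNF623 rose by 0.71, ZNF567 by 0.66, ZNF765 by 0.57, ZNF569 by 0.56 and ZNF770 by 0.54. ZNF567, whose ETS letters are shown above, had 8.71 and 8.69 with NR4A1 CEAA, against 8.13, 7.97 and 8.02 with GFP. Without NR4A1 CEAA replicate 1 the calls of ZNF623 (adjusted p = 0.0822), ZNF569 (0.0901) and ZNF770 (0.0866) were lost, and without NR4A1 CEAA replicate 2 those of ZNF569 (0.0797) and ZNF770 (0.0616).

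The largest falls with NR4A1 CEAA were of ZNF787 and ZNF740. ZNF787 had 6.85 and 6.91 with NR4A1 CEAA, against 7.82, 7.62 and 7.57 with GFP, a fall of 0.79 ± 0.11 (1.73-fold, adjusted p = 0.00291). ZNF740 had 7.27 and 7.38 with NR4A1 CEAA, against 8.06, 8.08 and 8.09 with GFP, a fall of 0.75 ± 0.06 (1.68-fold, adjusted p = 0.000486). Both were apart from GFP in every array. ZNF646 fell by 0.50, ZNF784 by 0.47, ZNF747 by 0.46, ZNF513 by 0.39, ZNF511 by 0.36 and ZNF689 by 0.36. The call of ZNF646 was lost without NR4A1 CEAA replicate 1 (adjusted p = 0.169) or GFP replicate 2 (0.0618), and that of ZNF747 without NR4A1 CEAA replicate 1 (0.0575). ZNF668, which shares its promoter region with ZNF646, differed from GFP by -0.10 with NR4A1 CEAA (adjusted p = 0.649) and fell by 0.44 with NR4A1 WT (adjusted p = 0.025). The call with NR4A1 WT was lost without GFP replicate 1 (adjusted p = 0.0772) or 3 (0.0865). The followed set of ZNF668 ends in s_at, and its other set, which is dim, differed by -0.08 with NR4A1 WT, not past the test.

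**Figure D2:**
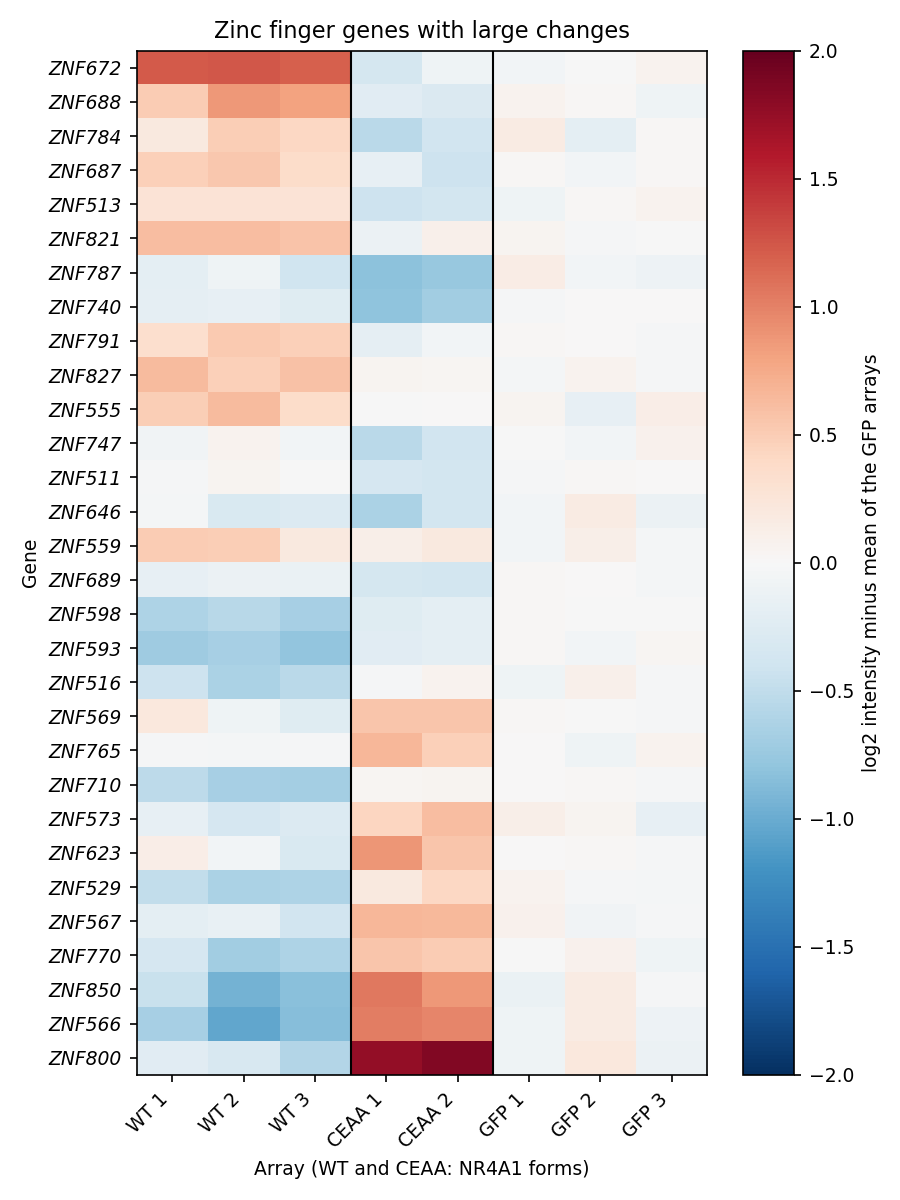
Log2 intensity of each array minus the mean of the GFP arrays (color), for the members with the largest changes in any of the 3 comparisons (rows, ordered by NR4A1 WT minus NR4A1 CEAA), with the arrays as columns. ZNF672 is high in the 3 NR4A1 WT arrays alone, and from ZNF573 down to ZNF800 the 2 NR4A1 CEAA arrays are high.

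The difference between the NR4A1 forms was tested directly. Of the members, 27 were higher with NR4A1 WT than with NR4A1 CEAA (12.6%, against 18.0% of all genes) and 50 were lower (23.3%, against 13.4%), with a median difference of -0.05, against 0.03 over all genes. The other ZNF genes had 25 of 237 higher (10.5%) and 69 lower (29.1%), with a median of -0.06. Arrays did not overlap for 42 higher members (30.4% of all genes) and 79 lower ones (22.6%). Rank Product called 3 higher (1.87% of all genes) and 4 lower (0.996%). At least 1.5-fold were 6 higher members (4.35% of all genes) and 20 lower ones (3.59%). ZNF800 differed by -2.18 ± 0.13 (4.53-fold lower with NR4A1 WT, adjusted p = 2.17e-05). ZNF672 had 9.40, 9.42 and 9.37 with NR4A1 WT, against 7.83 and 8.09 with NR4A1 CEAA, a difference of 1.44 ± 0.08 (adjusted p = 1.75e-05).

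The comparisons with GFP share the GFP arrays, and their calls are therefore given side by side. Both forms were past the test in 18 members (8.37%), against 6.47% of all genes. ZNF529, ZNF550, ZNF565, ZNF566, ZNF639, ZNF770 and ZNF850 were lower with NR4A1 WT and higher with NR4A1 CEAA (3.26%, against 1.39% of all genes). ZNF513, ZNF687 and ZNF784 were higher with NR4A1 WT and lower with NR4A1 CEAA (1.4%, against 1.55%). ZNF514 and ZNF611 were higher with both forms (0.93%, against 1.37%), and ZNF574, ZNF589, ZNF593, ZNF598, ZNF692 and ZNF740 were lower with both (2.79%, against 2.16%). With NR4A1 CEAA, the calls of ZNF611, ZNF574 and ZNF692 were lost without either NR4A1 CEAA array (adjusted p between 0.0561 and 0.229), those of ZNF574 and ZNF692 also without GFP replicate 2 or 3, and that of ZNF692 without GFP replicate 1 or NR4A1 WT replicate 1 (0.0533 to 0.11). With NR4A1 WT, the call of ZNF611 was lost without GFP replicate 2 or 3 or NR4A1 WT replicate 1 or 2 (0.0596 to 0.0824), and that of ZNF740 without any 1 NR4A1 WT or GFP array (0.052 to 0.11). In all, 93 members (43.3%) were past the test in at least 1 of the comparisons with GFP, against 33.0% of all genes. Several members of this paragraph (ZNF514, ZNF550, ZNF565, ZNF574, ZNF611, ZNF639 and ZNF692) were named after their values were seen.

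Array values of the opposite movers show how the forms part. ZNF770 had 8.35, 7.99 and 8.07 with NR4A1 WT, 9.24 and 9.19 with NR4A1 CEAA, and 8.67, 8.76 and 8.60 with GFP. ZNF639 had 9.99, 9.93 and 9.88 with NR4A1 WT, 10.62 and 10.63 with NR4A1 CEAA, and 10.30, 10.28 and 10.29 with GFP. No group overlapped another in either gene. ZNF550, with the ETS letters just after its start, had 7.58, 7.44 and 7.46 with NR4A1 WT, 8.20 and 8.25 with NR4A1 CEAA, and 7.77, 7.70 and 7.89 with GFP. Its call with NR4A1 WT was lost without GFP replicate 1 or 3 or NR4A1 WT replicate 2 or 3 (adjusted p between 0.0511 and 0.0626), and that with NR4A1 CEAA without NR4A1 CEAA replicate 2 (0.0525). ZNF551 and ZNF766, also shown above with the letters just after the start, were picked after their values were seen. The letters were near the start in 27 members, and the shares by call are given above. ZNF551 differed by 0.53 with NR4A1 CEAA and ZNF766 by -0.24 with NR4A1 WT, both narrowly past the test (adjusted p = 0.0337 and 0.0383). The call of ZNF551 was lost without any 1 NR4A1 CEAA or GFP array (0.0731 to 0.171), and that of ZNF766 without any array but NR4A1 WT replicate 2 (0.0502 to 0.123). ZNF513 had 7.11, 7.10 and 7.10 with NR4A1 WT, 6.41 and 6.47 with NR4A1 CEAA, and 6.75, 6.85 and 6.90 with GFP, so that it moved the other way. ZNF687 had 6.39, 6.45 and 6.28 with NR4A1 WT, 5.74 and 5.50 with NR4A1 CEAA, and 5.94, 5.85 and 5.94 with GFP. Its fall with NR4A1 CEAA (-0.29) was close to the threshold, and was lost in 10 of 15 alternative settings, 7 of them a single array left out (NR4A1 CEAA replicate 2, any NR4A1 WT array or any GFP array, adjusted p between 0.0503 and 0.298).

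**Figure D3:**
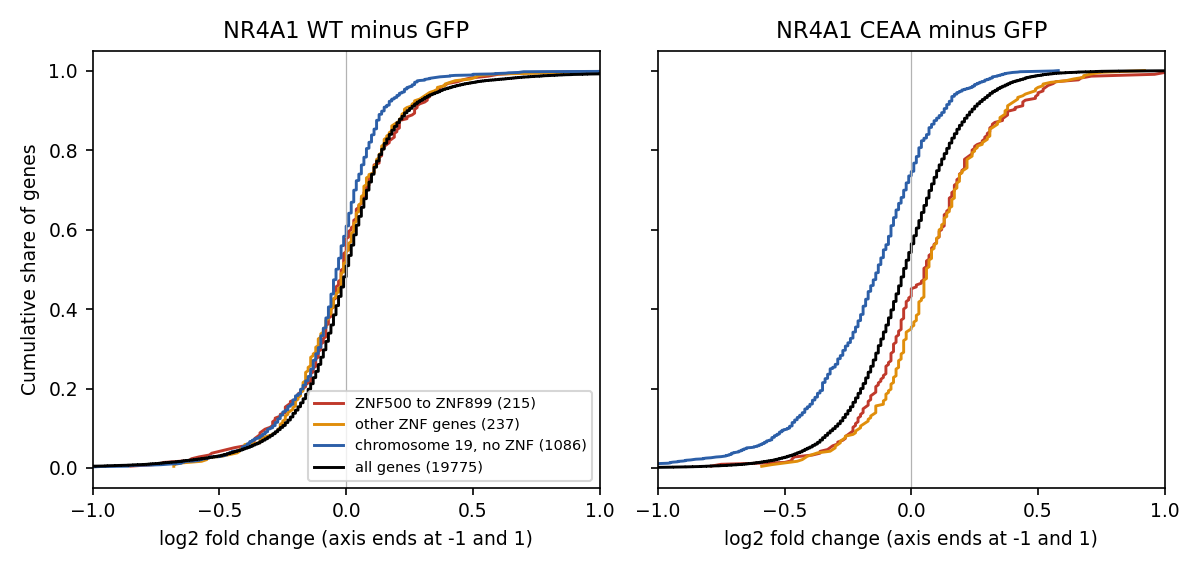
Cumulative share of genes (y axis) by log2 fold change against GFP (x axis, shown between -1 and 1) for NR4A1 WT (left) and NR4A1 CEAA (right). With NR4A1 WT the 215 members (median -0.01) run close to all 19775 genes, and with NR4A1 CEAA the members and the 237 other ZNF genes lie to the right of all genes, whereas the 1086 genes of chromosome 19 without a ZNF symbol lie to the left.

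Members on chromosome 19 were set beside members elsewhere and beside the other genes of that chromosome, as a description without a test. Of the 108 members on chromosome 19, 19 were higher with NR4A1 CEAA than with GFP (17.6%, against 7.14% of all genes) and 5 lower (4.63%, against 12.1%), with a median of 0.06. Of the 107 members elsewhere, 19 were higher (17.8%) and 12 lower (11.2%), with a median of 0.05. Of the 1086 genes on chromosome 19 without a ZNF symbol, 18 were higher (1.66%) and 296 lower (27.3%), with a median of -0.13. With NR4A1 WT, the members on chromosome 19 had 12 higher (11.1%, against 9.97% of all genes) and 9 lower (8.33%, against 10.3%), members elsewhere 13 (12.1%) and 22 (20.6%), and the chromosome 19 genes without a ZNF symbol 37 (3.41%) and 142 (13.1%).

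Neighboring members of chromosome 19 were then followed in gene order, a grouping made after the values were seen. A run was defined as members no more than 10 protein-coding genes apart. The counts that follow describe few genes, and are set beside 7.14% of all genes higher and 12.1% lower with NR4A1 CEAA, and 9.97% higher and 10.3% lower with NR4A1 WT. The run between ZNF565 and ZNF573 holds 18 members among 30 protein-coding genes. With NR4A1 CEAA, 9 of the 18 were higher than with GFP and 0 lower, with a median of 0.21: ZNF565 by 0.44, ZNF566 by 1.00, ZNF529 by 0.31, ZNF567 by 0.66, ZNF850 by 0.96, ZNF569 by 0.56, ZNF570 by 0.36, ZNF571 by 0.44 and ZNF573 by 0.52. With NR4A1 WT, 0 of the 18 were higher and 4 lower (ZNF565, ZNF566, ZNF529 and ZNF850), the call of ZNF565 being lost without GFP replicate 1 (adjusted p = 0.0728) or 2 (0.0644). Among the 9 other genes measured in the span, 3 were higher and 0 lower with NR4A1 CEAA, and 0 were higher and 2 lower with NR4A1 WT. Promoters of 17 of the 18 were in the table, and 5 held the ETS letters. Another probe set was also higher with NR4A1 CEAA in ZNF529 and ZNF567. The other set of ZNF569 differed by -0.01, of ZNF570 by 0.16 and of ZNF573 by 0.18, none past the test. ZNF565, ZNF566, ZNF850 and ZNF571 had a single set. The followed set of ZNF569 ends in s_at and can share probes with related genes. Calls with NR4A1 CEAA were lost without NR4A1 CEAA replicate 2 for ZNF529, ZNF565, ZNF569, ZNF571 and ZNF573 (adjusted p between 0.0667 and 0.288), and without NR4A1 CEAA replicate 1 for ZNF569, ZNF570 and ZNF571 (0.0651 to 0.126). Those of ZNF529 and ZNF571 were also lost without any 1 GFP array, that of ZNF570 without GFP replicate 1, and that of ZNF571 without NR4A1 WT replicate 3 (adjusted p between 0.0525 and 0.118).

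The other runs are given by their counts alone, and no test was made between runs. Of all genes, 9.97% were higher and 10.3% lower with NR4A1 WT, and 7.14% and 12.1% with NR4A1 CEAA. In the run between ZNF653 and ZNF791, 4 of 11 members were higher with NR4A1 WT and 0 lower, and 0 were past the test with NR4A1 CEAA. In the run between ZNF577 and ZNF600, with 16 members, 2 were higher and 0 lower with NR4A1 CEAA, and 1 was higher and 1 lower with NR4A1 WT. In the run between ZNF787 and ZNF584, with 25 members, 5 were higher and 1 lower with NR4A1 CEAA, and 2 were higher and 3 lower with NR4A1 WT. In the run between ZNF628 and ZNF580, with 7 members, 0 were higher and 2 lower with NR4A1 CEAA.

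**Figure D4:**
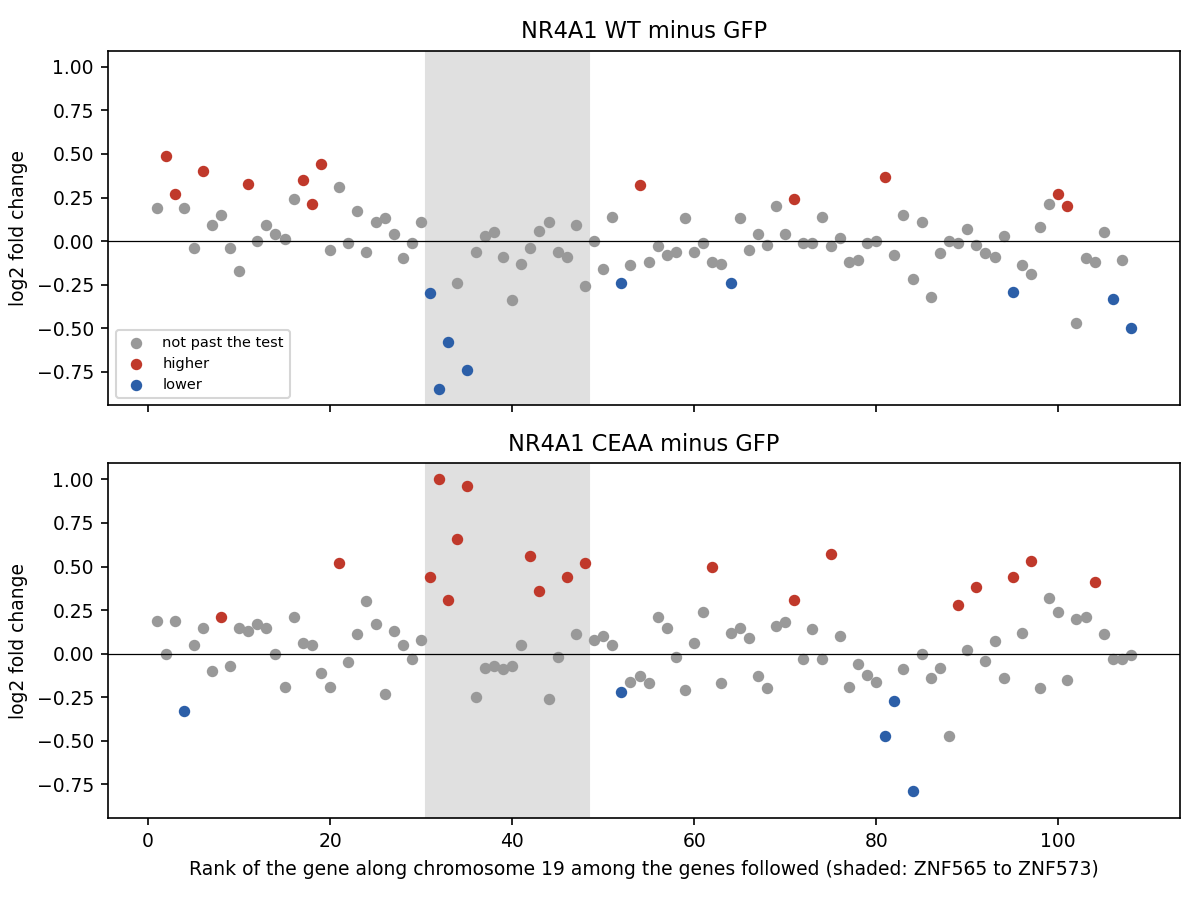
Log2 fold change against GFP (y axis) of the 108 members on chromosome 19, in their order along the chromosome (x axis, rank), with NR4A1 WT (top) and NR4A1 CEAA (bottom), and red and blue for members higher and lower in limma's test. In the shaded run of 18 members, 4 points are blue and 0 red with NR4A1 WT, and 9 are red and 0 blue with NR4A1 CEAA.

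Members with described roles were followed as a list. Of the ribosome and translation factors, ZNF593 and ZNF598 fell with NR4A1 WT as given above. They were also lower with NR4A1 CEAA, by 0.21 (9.04 and 9.06 with NR4A1 CEAA) and 0.22 (8.17 and 8.21). These smaller falls passed the test narrowly (adjusted p = 0.0495 and 0.0268), and each was lost without either NR4A1 CEAA array or any GFP array, with adjusted p up to 0.199. That of ZNF593 was also lost without NR4A1 WT replicate 1 (0.0621). For both, the difference between the forms was itself past the test (-0.51 and -0.39 for NR4A1 WT minus NR4A1 CEAA). ZNF622, whose yeast counterpart acts in late maturation of the large ribosomal subunit, averaged 9.98 ± 0.04 with NR4A1 WT, against 9.97 ± 0.03 with GFP (SD, n = 3 each), with arrays that overlapped. With NR4A1 CEAA it had 9.79 and 9.81, below all GFP arrays but not past the test (-0.17, adjusted p = 0.0678).

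Among hematopoietic regulators, ZNF589, a KRAB protein of blood stem cells, was lower with both forms (-0.26 with NR4A1 WT and -0.32 with NR4A1 CEAA). It had 6.91, 6.85 and 6.94 with NR4A1 WT, 6.89 and 6.79 with NR4A1 CEAA, and 7.13, 7.08 and 7.27 with GFP. The call with NR4A1 WT was lost without NR4A1 WT replicate 1 or 2 or GFP replicate 1 or 3 (adjusted p between 0.0528 and 0.0759), and that with NR4A1 CEAA without either NR4A1 CEAA array or GFP replicate 3 (0.0542 to 0.132). ZNF521, a cofactor of early blood progenitors, was dim in every array (2.77 to 3.15). ZNF683, a regulator of tissue-resident lymphocytes, had 6.01 to 6.25 and was not past the test.

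Of the partners of the chromatin reader ZMYND8, ZNF687 moved in opposite directions as given above, and the followed probe sets of ZNF592 and ZNF532 were not past the test. ZNF711, an X-linked activator that works with the demethylase PHF8, had 9.60 and 9.45 with NR4A1 CEAA, against 9.12, 9.10 and 9.01 with GFP. It rose by 0.45 ± 0.07 (adjusted p = 0.00536), a call lost without NR4A1 CEAA replicate 1 (0.0543). It had 9.13, 9.02 and 8.98 with NR4A1 WT and was not past the test there. ZNF638, an RNA-binding protein, rose by 0.29 with NR4A1 CEAA (adjusted p = 0.0196). Without either NR4A1 CEAA array, GFP replicate 1 or GFP replicate 3 its adjusted p was between 0.0597 and 0.105. ZNF516, which binds the corepressor CtBP, had 8.03, 7.82 and 7.91 with NR4A1 WT, against 8.37, 8.55 and 8.43 with GFP, and 8.43 and 8.52 with NR4A1 CEAA. Against GFP, none of ZNF503, ZNF703, ZNF644, ZNF830, ZNF746 and ZNF750 passed the test with either form, and their differences lay between -0.16 and 0.13.

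The probe sets of a gene did not always move together. Of the 215 members, 131 had several probe sets (up to 6) and 84 had a single one. For each probe set the test was adjusted over all 41091 probe sets. The counts that follow were not made over all genes, so the usual agreement on this array is not known. Of the 38 members higher with NR4A1 CEAA, 27 had several probe sets, another passed in the same direction in 10, and in 17 no other passed. Of the 25 members higher with NR4A1 WT, 14 had several and another passed in 4. Of the 31 lower with NR4A1 WT, 19 had several and another passed in 5. Of the 17 lower with NR4A1 CEAA, 7 had several and another passed in 2. The other probe sets above the median level had the same sign in 20 of 24 for members higher with NR4A1 CEAA, 14 of 14 for members higher with NR4A1 WT, 19 of 22 for members lower with NR4A1 WT and 5 of 6 for members lower with NR4A1 CEAA.

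Several rises rested on more than 1 probe set. In ZNF827, 4 of 5 probe sets were higher with NR4A1 WT (0.56, 0.84, 0.62 and 0.64), and the fifth, at 0.41, was not past the test. The brightest set differed by 0.05 with NR4A1 CEAA, while 2 others were lower there (-0.37 and -0.25). In ZNF791 all 3 were higher (0.44, 0.53 and 0.45). ZNF555 had 2 higher with NR4A1 WT (0.49 and 0.44), and ZNF821 had 2 (0.60 and 0.24). ZNF710 had 2 lower with NR4A1 WT (-0.62 and -0.38), while its 3 dimmer sets were between -0.10 and -0.06. With NR4A1 CEAA, all 3 sets of ZNF770 were higher (0.54, 0.58 and 0.71) and all 3 of ZNF747 were lower (-0.46, -0.43 and -0.34). The 2 other sets of ZNF770 differed by -0.19 and -0.11 with NR4A1 WT, neither past the test. ZNF639 had 2 sets that were lower with NR4A1 WT (-0.36 and -0.37) and higher with NR4A1 CEAA (0.33 and 0.36). Its remaining set differed by -0.11 with NR4A1 WT and -0.05 with NR4A1 CEAA, neither past the test.

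Other changes were seen in a single probe set, or differed in size or direction between sets. The 3 other sets of ZNF800, with mean levels of 5.31, 4.89 and 4.50, differed by 0.04, -0.08 and 0.09 between NR4A1 CEAA and GFP, against 1.80 for the followed set, whose mean was 6.27. The 2 other sets of ZNF672, at 4.68 and 4.12, differed by 0.07 and 0.14 between NR4A1 WT and GFP, against 1.21 for the followed set. The second set of ZNF598 differed by -0.05. With NR4A1 CEAA, the other set of ZNF787, with a mean of 3.74, differed by 0.19, against -0.79 for the followed set, and the 2 other sets of ZNF740, with means of 4.48 and 3.74, differed by -0.14 and -0.03, against -0.75. In ZNF652, which binds the ETO family protein CBFA2T3, the 2 brightest sets differed by 0.04 and 0.12 with NR4A1 CEAA, whereas a set with a mean of 5.91 was higher by 1.35 with NR4A1 CEAA and lower by 0.51 with NR4A1 WT. Between the forms, the followed set of ZNF652 was narrowly lower with NR4A1 WT than with NR4A1 CEAA (-0.24, limma, adjusted p = 0.0496). Its 3 other sets were also lower there (-1.86 to -0.33). In ZNF638, a set with a mean of 6.51 was higher by 1.21 with NR4A1 CEAA, beside 0.29 for the followed set. In ZNF567 a set with a mean of 5.39 was higher by 1.61, beside 0.66 for the followed set. In ZNF655 the brightest set differed by -0.03 with NR4A1 CEAA, the next was lower by 0.48, and the dimmest of the 3, with a mean of 5.35, was higher by 1.07. In ZNF592, 2 sets that were not followed were lower with NR4A1 CEAA (-0.26 and -0.30). Between NR4A1 WT and NR4A1 CEAA, probe sets also passed in opposite directions in ZNF589, ZNF609, ZNF641, ZNF709 and ZNF777. Which transcripts each probe set detects was not analysed here.

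**Figure D5:**
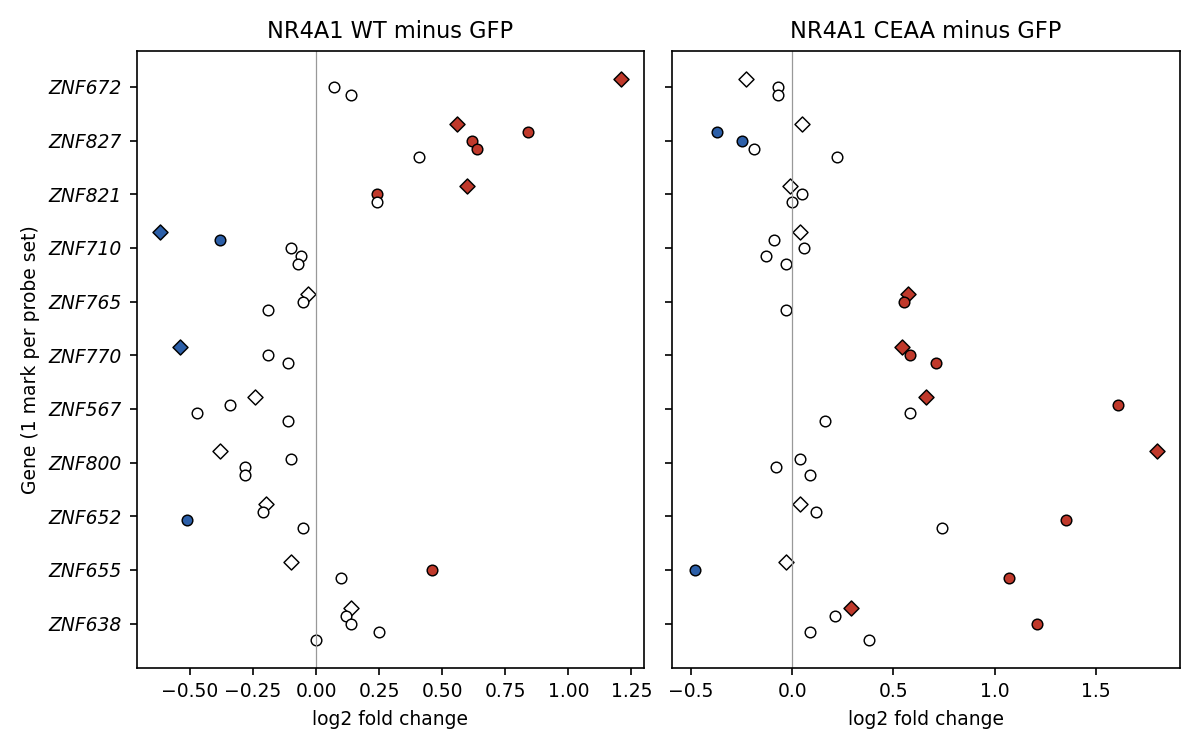
Log2 fold change against GFP (x axes, 1 scale for each panel) of every single-symbol probe set of 11 members, with NR4A1 WT (left) and NR4A1 CEAA (right). The diamond is the followed set, circles are the others in order of level, and red and blue mark sets higher and lower in limma's test over all probe sets, white those not past it. ZNF827 and ZNF770 have several red marks on the same side, whereas ZNF800 and ZNF672 have a red diamond alone.

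The partners through which KRAB zinc finger proteins silence chromatin were also followed, as 19 of 20 listed genes with a followed probe set. With NR4A1 WT, 4 were higher (21.1%, against 9.97% of all genes) and 3 lower (15.8%, against 10.3%) than with GFP. With NR4A1 CEAA 6 were higher (31.6%, against 7.14%) and 4 lower (21.1%, against 12.1%), as a description of a short list. All of the 19 were above the median level, where calls were more frequent. Of all genes above it, 14.1% were higher and 15.2% lower with NR4A1 WT. With NR4A1 CEAA, 10.1% of those genes were higher and 17.7% lower. TRIM28, the scaffold that binds the KRAB domain, had 10.35 and 10.48 with NR4A1 CEAA, against 10.86, 10.80 and 10.89 with GFP, a fall of 0.44 ± 0.07 (adjusted p = 0.00421). With NR4A1 WT it had 10.71, 10.79 and 10.67 and was not past the test. SETDB1, the histone methyltransferase of this pathway, had 8.30, 8.36 and 8.38 with NR4A1 WT, 7.86 and 7.89 with NR4A1 CEAA, and 8.02, 8.17 and 8.17 with GFP. It was higher by 0.23 with NR4A1 WT and lower by 0.25 with NR4A1 CEAA, but the first call was lost without any of 7 single arrays, all but NR4A1 WT replicate 1 (adjusted p between 0.0502 and 0.0974), and the second without GFP replicate 2 or 3 or either NR4A1 CEAA array (0.0979 to 0.166). CBX5, a heterochromatin protein, had 8.20 and 8.35 with NR4A1 CEAA, against 7.41, 7.76 and 7.74 with GFP. It rose by 0.64 ± 0.12, a call lost without NR4A1 CEAA replicate 2 (adjusted p = 0.0674). With NR4A1 WT, MPHOSPH8, a reader of the same silencing mark, rose by 0.49, MORC2, a chromatin-compacting ATPase, fell by 0.41, and UHRF1, which guides DNA methylation, fell by 0.39.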

How the data were processed

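The authors extracted RNA from 8 Kasumi-1 samples, hybridized it to Affymetrix U133 Plus 2.0 arrays and deposited log2 probe set intensities made by Robust Multiarray Analysis in RMA Express, which subtracts background, normalizes by quantiles and summarizes probes. Its version is not given in the sources used here, and quantile normalization removes any change shared by most genes. Values ran from 2.285 to 14.971 with array medians of 4.755 to 4.802, and the number of arrays limits the precision. All 8 value columns were used and none left out.

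Of 54613 probe sets, the 41091 with exactly 1 gene symbol were kept (1801 list several, 11721 none), and for 19775 genes the set of highest mean level was taken. The 215 members have 446 probe sets, and 25 followed sets end in s_at and 24 in x_at, which can share probes with related genes, so that these values may include paralogs. Symbols came from GEO's platform annotation, and chromosome, gene order and promoters from RefSeq (GRCh38.p14).

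R 4.3.3 and limma 3.58.1 fitted all groups together (lmFit, then eBayes with 8.04 degrees of freedom, 3.04 of them prior), with Benjamini-Hochberg adjustment over all genes. The scripts were tested on simulated data. Rank Product, the test in the study's methods, was run with 100 permutations as an alternative, beside an intensity trend, array weights, the arrays of 2 groups only, a filter on dim sets, median centering, repeated quantile normalization, a replicate block, all probe sets, no s_at or x_at sets, a stricter threshold and each array left out. Genes named are the up to 8 largest rises and falls per comparison with arrays apart, up to 6 called in opposite directions, up to 8 with several probe sets past the test, those whose probe sets pass in opposite directions, the members listed by role and up to 4 silencing partners per comparison. Others are said to be, or here are (ZNF551, ZNF570, ZNF571, ZNF668 and ZNF766), named after their values were seen. The members and lists were chosen with earlier results of these data known. Protein features were not used here.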

Additional observations from a re-analysis of the deposited data

Results flagged for a closer look

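Members past the test in opposite directions with NR4A1 WT and NR4A1 CEAA, each against GFP, are listed here. They were picked for those opposite calls, and the comparisons share the GFP arrays, so the difference between the forms follows from the choice and is given as a description. As NR4A1 WT minus NR4A1 CEAA on the log2 scale, ZNF566 differed by -1.85, ZNF850 by -1.71, ZNF770 by -1.08, ZNF529 by -0.89, ZNF550 by -0.73, ZNF565 by -0.73 and ZNF639 by -0.69. ZNF784 differed by 0.83, ZNF687 by 0.76 and ZNF513 by 0.67. The group means of ZNF784 were 7.57 with NR4A1 WT, 6.74 with NR4A1 CEAA and 7.20 with GFP. Its calls against GFP were lost when single arrays were left out, with adjusted p up to 0.139 for NR4A1 WT (without NR4A1 WT replicate 2 or 3, GFP replicate 2 or 3, or either NR4A1 CEAA array) and up to 0.197 for NR4A1 CEAA (without either NR4A1 CEAA array or GFP replicate 1 or 3).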

How the results depend on the processing

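In the 15 alternatives that keep the followed probe set, no called result of a named gene changed direction. Without s_at and x_at sets, an alternative added for named genes after seeing the data, 93 of the 114 called results with a value held, 19 were lost and 2 turned, both of ZNF569 (-0.01 for NR4A1 CEAA against GFP and 0.15 for NR4A1 WT against NR4A1 CEAA). Those lost include ZNF672 (0.07), ZNF688 (0.4) and ZNF668 (-0.08) with NR4A1 WT. That setting leaves 192 members, with 15 higher and 17 lower with NR4A1 WT (7.9% and 8.34% of all genes), 29 and 14 with NR4A1 CEAA (5.97% and 7.66%), and 21 and 40 between the forms (13.3% and 12.2%). Other probe sets of a gene can also pass in the opposite direction, as given above for ZNF609, ZNF641, ZNF709 and ZNF777. Rank Product called 3 higher and 5 lower with NR4A1 WT, 6 and 2 with NR4A1 CEAA, and 3 and 4 between the forms. At an adjusted p under 0.01, 12 were higher (5.8% of all genes) and 14 lower (6.34%) with NR4A1 WT. With NR4A1 CEAA, 16 were higher (2.2% of all genes) and 6 lower (5.98%). Between the forms, 16 were higher and 39 lower with NR4A1 WT than with NR4A1 CEAA (12.3% and 8.6% of all genes). For the fits with 1 array left out, given next, the shares of all genes were not counted. A loss particular to the members therefore cannot be told there from a loss over all genes. Those without an NR4A1 CEAA array leave a single array in that group. With 1 array left out, 15 to 19 were higher and 15 to 25 lower with NR4A1 WT (15 higher without GFP replicate 2, and 15, 19 and 18 lower without GFP replicates 1, 2 and 3), 14 to 39 higher and 7 to 16 lower with NR4A1 CEAA, and 18 to 30 higher and 37 to 51 lower between the forms.

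Same-numbered arrays showed little shared variation (correlations of deviations from group means from -0.041 to 0.086). With so few arrays in a group these deviations are tied to each other. The labels do not say how replicates were run, so pairing is not excluded. With the replicate block, 25 members were higher and 8 lower with NR4A1 CEAA, and 20 of 125 called results for named genes were lost. The share of all genes past the test in that fit was not counted. Median centering lost 6 of these and moved the median of all genes by at most 0.02. Protein features could not be run. The NR4A1 CEAA group has 2 arrays, and no detection call was used for dim sets.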
